A study of Homo sapiens with 6 samples.

Results

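Genes of the splicing machinery were followed after siRNA against OCRL in HK2 cells, a human renal line derived from proximal tubule. They were chosen by name alone, as genes whose symbol begins with LSM, SNRP, SF3A, SF3B, PRPF, SRSF or HNRNP, which gave 67 of the 11963 genes measured under a single symbol. They fell into 18 Sm and LSm genes, 21 other genes of the small nuclear ribonucleoproteins (snRNPs) and their partners, 9 SR protein genes and 19 hnRNP genes. Control cells received a non-targeting siRNA and the others an OCRL siRNA, both with Dharmafect 4 at 30% confluence, and total RNA was taken 96 h later. Each group held 3 GeneChip arrays, 1 per biological replicate. OCRL encodes an inositol polyphosphate 5-phosphatase, and the study compared cells with and without its silencing. All cells were of the 1 line and carried no other labelled change, and a single OCRL siRNA condition stood against a single control condition.

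Introns are removed by the spliceosome, which is built from snRNPs, each made of a small nuclear RNA and proteins. Sm proteins form a ring on the U1, U2, U4 and U5 RNAs, and the related LSm proteins form one on the U6 RNA. SR proteins bind exons and mostly promote the use of nearby splice sites, whereas hnRNP proteins coat nascent transcripts and often oppose them, and many members of both families regulate their own transcripts. Most of these genes are expressed widely, the renal epithelium included.

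The label of the knockdown was checked first. The brighter OCRL probe set, the group of oligonucleotides that reports a transcript, was at 9.49, 9.48 and 9.50 (log2 value) in the control arrays and at 7.52, 7.49 and 7.40 in the OCRL siRNA arrays, and the groups did not overlap (log2 difference -2.02, SE 0.048, limma adjusted p = 1.24e-05). An exact two-sided permutation test gave p = 0.1, the smallest that 3 arrays against 3 allow. Of 4 epithelial markers, limma called 2 lower, EPCAM from 11.43 to 10.63 (log2 difference -0.81, adjusted p = 1.07e-04) and KRT8 from 11.44 to 11.06 (-0.38, adjusted p = 0.00386), while KRT18 was at 13.34 and 13.30. Of 7 proximal tubule markers, the transcription factor gene PAX8 was called lower, from 11.21 to 10.92 (-0.29, adjusted p = 0.00282), and ANPEP higher, from 4.24 to 4.80 (0.56, adjusted p = 0.0222). CDH1, LRP2, AQP1 and ANPEP lay below the lower quartile on all 6 arrays. The part of these marker differences in the results on splicing genes was not tested. Of the 4 endothelial and 4 leukocyte markers measured, limma called 0, with 1 and 0 at an unadjusted p under 0.05. Of the 6 fibroblast markers it called 1, LUM, at 9.23 in control and 8.62 in OCRL siRNA cells. The 3' to 5' difference of the GAPDH control probe sets, a sign of RNA integrity, ran from 0.28 to 0.32 in control and from 0.29 to 0.34 in OCRL siRNA arrays. That of the ACTB control probe sets was larger, from 1.48 to 1.80 in control arrays, highest in replicate 1, and from 1.64 to 1.69 in OCRL siRNA arrays.

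Differences within the splicing machinery were small, and the shares of calls differed between the groups of genes. Sm and LSm genes were the ones called higher most often (44.4%, beside 15.5% of all genes), led by LSM4, which rose 1.33-fold. The hnRNP genes were called lower more often than higher (21.1% and 5.26%), led by HNRNPH3, which fell 1.38-fold. Their calls include the dim pseudogene HNRNPA3P1, and the median log2 difference of the group was -0.02. Called lower were 10.5% of all genes and 14.7% of those at or above the median level of all probe sets. No member reached a 1.5-fold change. In all, 12 of the 67 genes were called higher, 6 lower and 49 neither (limma, adjusted p under 0.05 over all probe sets). The median log2 difference was -0.002 over the 67 genes and 0.001 over all genes.

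These counts were close to the background. Over all genes, 15.5% were called higher, 10.5% lower and 26.0% in either direction, and among the 67 members the shares were 17.9%, 8.96% and 26.9%. Bright genes are called more often. In all, 66 of the 67 members lay at or above the median level of all probe sets, the exception being the pseudogene HNRNPA3P1. Among the 6887 genes at or above that level, 22.9% were called higher, 14.7% lower and 37.6% in either direction. The arrays of the 2 groups did not overlap in 35 of the 67 members (52.2%), against 44.9% of all genes and 62.3% of those at or above the median level. The members' shares of calls lay near the first background and under the second.

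**Figure D1:**
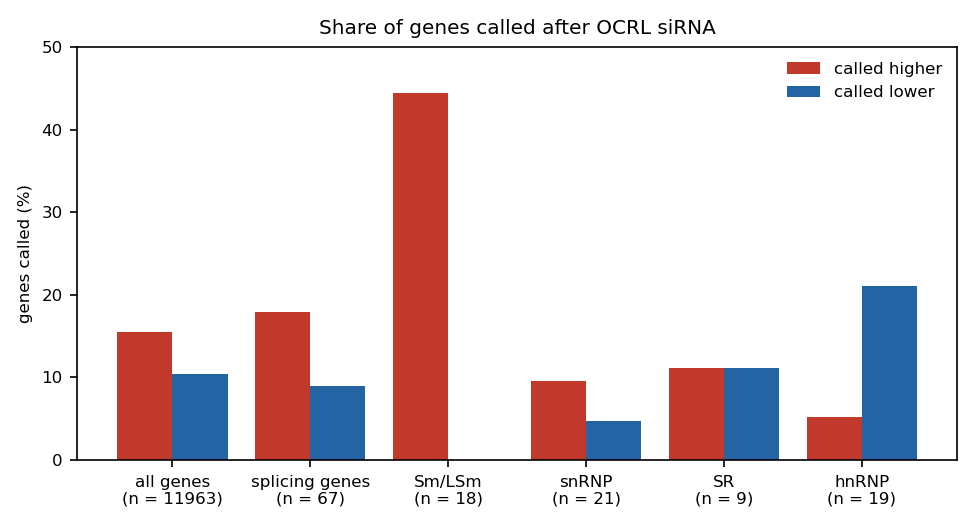
Percentage of genes called higher (red) or lower (blue) by limma after OCRL siRNA, over all 11963 genes, the 67 splicing genes and their 4 groups, with the number of genes under each pair of bars. The Sm/LSm bar reaches 44.4% higher with none called lower, and the hnRNP bars stand at 5.26% higher and 21.1% lower.

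Scaling of the arrays moved the balance of calls. After each array was centred on the same median, 6 members were called higher and 9 lower, and after quantile normalisation 12 and 8. Leaving out 1 array at a time gave 5 to 9 higher and 2 to 4 lower. The count of rises moved by over 1.5 times without control replicate 2 (7), or without OCRL siRNA replicate 1 (6), 2 (7) or 3 (5). The count of falls did so without control replicate 2 (2) or 3 (2), and likewise when OCRL siRNA replicate 1 (3), 2 (2) or 3 (2) was left out. Of the 18 called members, 7 kept their call whichever single array was left out. They were LSM4, LSM6, SNRPD3, SF3A3, HNRNPH3, HNRNPF and HNRNPA0.

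**Figure D2:**
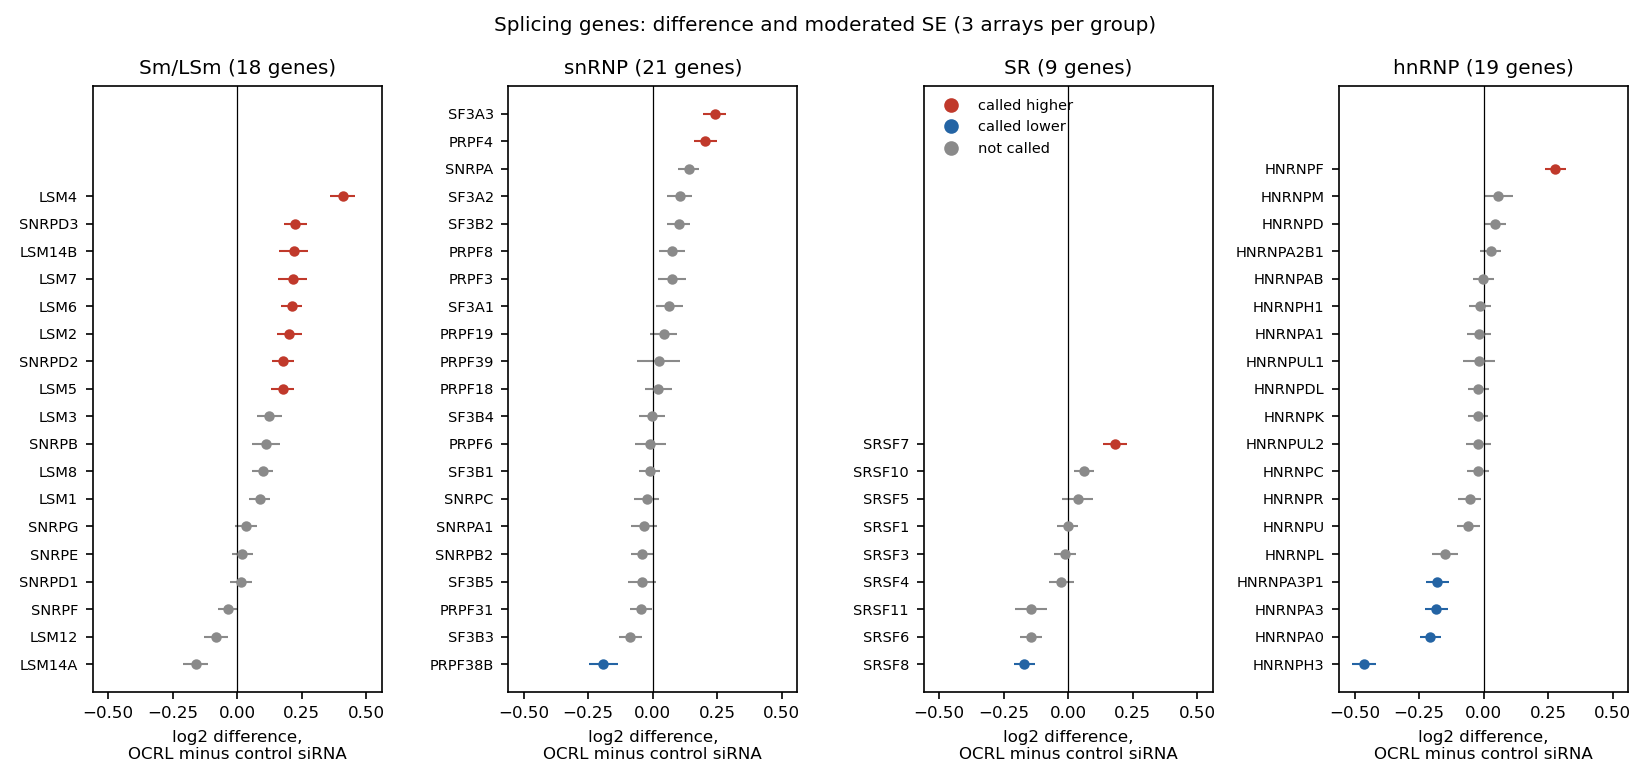
Log2 difference (OCRL siRNA minus control siRNA) of each of the 67 genes by its brightest probe set, with the moderated standard error of 3 arrays per group, in red where called higher, blue where called lower and grey where not called. LSM4 stands farthest to the right at 0.41 and HNRNPH3 farthest to the left at -0.46.

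Among the Sm and LSm genes, 8 of 18 rose and 10 did not pass. The share called higher was 44.4%, beside 15.5% of all genes and 22.9% of those at or above the median level. limma called 0 of them lower, with 1 lower at an unadjusted p under 0.05. The median log2 difference of the group was 0.12. The ring that binds the 3' end of U6 RNA is made of LSM2 to LSM8, and for the brightest probe set of each of these 7 genes all 3 OCRL siRNA arrays lay above all 3 control arrays. That held for 25.1% of all genes and for 36.3% of those at or above the median level. A dimmer LSM5 probe set lay wholly below the controls and was called lower, as given with the probe sets. Of the 7 genes of this ring, 5 were called higher (71.4%), namely LSM2, LSM4, LSM5, LSM6 and LSM7. The median difference of the 7 was 0.20. Of the 7 Sm ring genes, 2 were called higher (28.6%), SNRPD2 and SNRPD3, with a median of 0.03. After median centring the group median was 0.07, with 3 genes higher (LSM4, LSM6 and SNRPD3) and 1 lower (LSM14A).

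LSM4, whose protein has a glycine-rich tail beside its Sm fold, was at 10.70, 10.59 and 10.58 in control cells and at 11.03, 11.01 and 11.05 in OCRL siRNA cells. All 3 knockdown values lay above the controls, at 11.03 ± 0.021 (SD, n = 3) against 10.63 ± 0.069 (log2 difference 0.41, SE 0.050, adjusted p = 0.00159, limma). A second LSM4 probe set rose by 0.44 (SE 0.053, adjusted p = 0.00162), and the dimmest, close to the lower quartile of the arrays, gave 0.19 (adjusted p = 0.107).

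LSM6 was at 11.50, 11.50 and 11.48 in control cells and at 11.73, 11.68 and 11.71 after the knockdown (log2 difference 0.21, SE 0.041, adjusted p = 0.0106). LSM2 was at 10.16, 10.17 and 10.26, and then at 10.36, 10.43 and 10.40 (log2 difference 0.20, SE 0.048, adjusted p = 0.0249). Control replicate 3 was the highest control array for LSM2, still below each knockdown array. LSM5 (log2 difference 0.18) and LSM7 (0.21) rose as well. The remaining ring genes LSM3 and LSM8, the second of which keeps the ring in the nucleus, did not pass, at 12.30 against 12.43 (adjusted p = 0.104) and 11.45 against 11.55 (adjusted p = 0.136).

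SNRPD3, which encodes a core protein of the Sm ring, was at 12.63, 12.68 and 12.69 in control cells and at 12.92, 12.92 and 12.84 in knockdown cells (log2 difference 0.22, SE 0.045, adjusted p = 0.0124). SNRPD2, another Sm ring gene, was at 13.43, 13.49 and 13.52 and then at 13.66, 13.65 and 13.66 (log2 difference 0.18, SE 0.043, adjusted p = 0.0269). Both genes had 1 probe set, and their groups did not overlap. The other Sm genes were near level, with SNRPG at 13.64 ± 0.034 in control and 13.67 ± 0.029 in knockdown cells, SNRPE at 13.59 ± 0.0076 and 13.61 ± 0.026, and SNRPF at 13.04 ± 0.0098 and 13.01 ± 0.0033. SNRPD1 differed by 0.01 and SNRPB by 0.11 (adjusted p = 0.201), so the subunits of 1 ring did not all pass.

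Outside these rings the LSm genes went both ways. LSM14B, whose protein is found with untranslated messenger RNA, was at 8.52, 8.44 and 8.58 in control cells and at 8.73, 8.68 and 8.79 in knockdown cells (log2 difference 0.22, SE 0.056, adjusted p = 0.0312). Its paralog LSM14A, a protein of processing bodies, was at 11.62, 11.56 and 11.52 and then at 11.45, 11.36 and 11.41 by its brightest probe set (log2 difference -0.16, adjusted p = 0.0527). That probe set narrowly missed the threshold, while both other LSM14A probe sets fell, by 0.24 (adjusted p = 0.0071) and 0.22 (adjusted p = 0.0107) on the log2 scale. LSM1, which takes the place of LSM8 in the cytoplasmic ring that starts decapping, was at 11.08 ± 0.027 and 11.16 ± 0.022 (log2 difference 0.09, adjusted p = 0.189). LSM12 was at 10.19 and 10.10, with overlapping arrays.

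Several of these calls were lost when 1 array was left out. With fewer arrays, 18.1% to 25.0% of all genes were called, against 26.0% with all arrays. The log2 difference of SNRPD2 then ran from 0.15 to 0.19 and that of LSM5 from 0.15 to 0.20. LSM2 lost its call without control replicate 1 or 2 or OCRL siRNA replicate 2 or 3 (adjusted p = 0.0547 to 0.0843, limma). SNRPD2 lost it without each array but control replicate 1 (0.0521 to 0.0883), and LSM5 likewise (0.0699 to 0.105). LSM14B lost it without control replicate 1 or 2 or OCRL siRNA replicate 1 or 3 (0.0616 to 0.107), and LSM7 without control replicate 3 or any OCRL siRNA array (0.0693 to 0.112). Of the 8 calls, 4 were left without control replicate 2 or OCRL siRNA replicate 1 or 2, 5 without control replicate 3 and 3 without OCRL siRNA replicate 3. Median centring ended the same 5 calls, at adjusted p of 0.0551 for LSM2, 0.0827 for SNRPD2, 0.0971 for LSM5, 0.0757 for LSM14B and 0.0795 for LSM7.

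**Figure D3:**
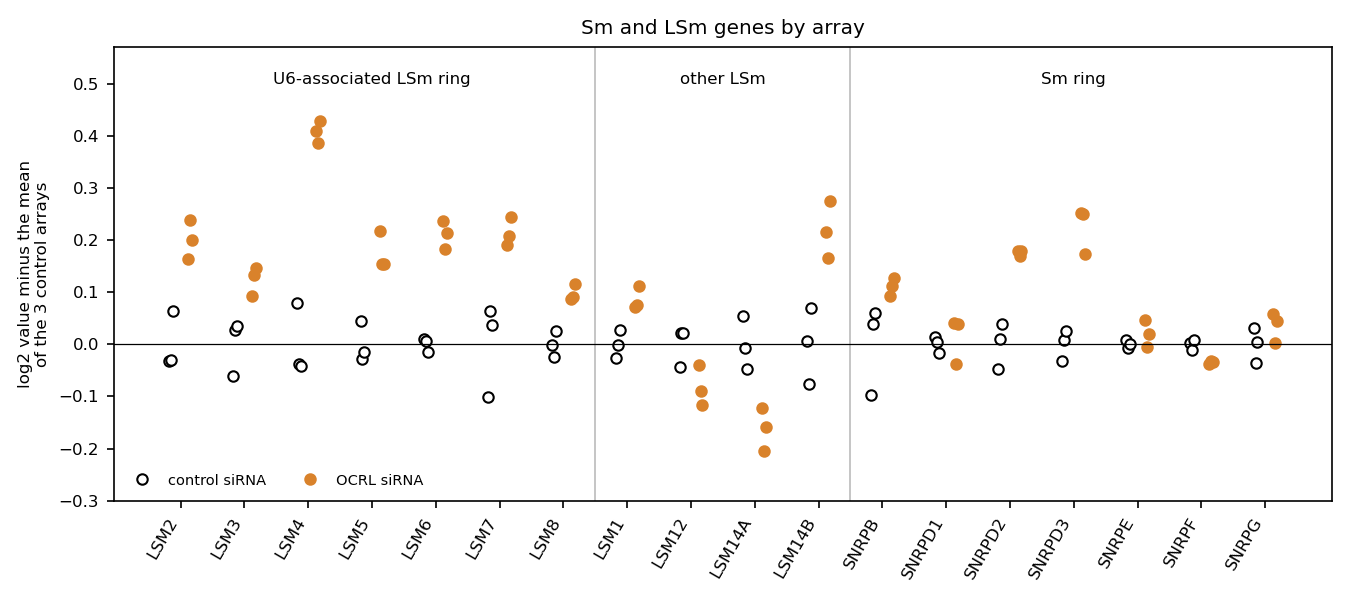
Log2 value of each array minus the mean of the 3 control arrays, for the 18 Sm and LSm genes, with open circles for control siRNA and filled circles for OCRL siRNA. All 3 filled circles lie above the open ones for LSM2 to LSM8, whereas LSM14A lies below and SNRPG, SNRPE and SNRPD1 overlap.

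Genes of the S phase of the cell cycle moved in the same samples. Of 20 measured, 18 rose, while 15.5% of all genes and 22.9% of those at or above the median level were called higher. limma called 0 of the 20 lower, with 0 lower at an unadjusted p under 0.05. The list was chosen with earlier results of these data known. TK1, a thymidine kinase gene, rose by 0.93 (SE 0.058, adjusted p = 1.16e-04) and PRIM1, a primase gene, by 0.65 (SE 0.044, adjusted p = 1.63e-04). The list's mean log2 level ran from 10.89 to 10.95 in control arrays and stood at 11.32 on each OCRL siRNA array, while the mean of the 18 Sm and LSm genes ran from 11.84 to 11.87 and from 11.95 to 11.97. The part of cell cycling in the Sm and LSm difference was not tested. In RNA from whole cultures, a larger share of cells in one phase and more RNA per cell cannot be told apart.

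Among the 21 other snRNP genes, 2 rose, 1 fell and 18 did not pass, which was below the background in both directions. The median log2 difference was 0.02, and -0.02 after median centring. The SNRP genes of U1 and U2 snRNP, SNRPA, SNRPA1, SNRPB2 and SNRPC, gave 0 calls by limma, with 1 at an unadjusted p under 0.05, and 1 of 8 SF3 genes and 2 of 9 PRPF genes were called. Without OCRL siRNA replicate 1 or 3, 1 of the 3 calls was left.

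SF3A3, a subunit of the SF3a complex that joins U2 snRNP to the branch site, was at 10.50, 10.55 and 10.47 in control cells and at 10.75, 10.72 and 10.77 in knockdown cells. The groups were well apart (log2 difference 0.24, SE 0.045, adjusted p = 0.00911). The other SF3a genes did not pass: SF3A1 was at 10.62 and 10.68 with overlapping arrays (adjusted p = 0.456) and SF3A2 at 7.99 and 8.09 (adjusted p = 0.179).

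PRPF4, a protein of the U4/U6 snRNP, was at 11.06, 11.14 and 11.15 and then at 11.32, 11.31 and 11.34 (log2 difference 0.20, SE 0.044, adjusted p = 0.0169). Its second probe set rose by 0.27 (SE 0.050, adjusted p = 0.00921). The call on the brighter probe set was lost without OCRL siRNA replicate 1 or 3, at adjusted p of 0.0501 and 0.0656. PRPF3, which partners PRPF4 in that particle, was at 9.15 and 9.23 with overlapping arrays (adjusted p = 0.39).

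PRPF38B, a protein with a domain shared with yeast Prp38, was at 9.66, 9.52 and 9.51 in control cells and at 9.41, 9.33 and 9.37 in knockdown cells (log2 difference -0.19, SE 0.055, adjusted p = 0.0479). Control replicate 1 stood above the other control arrays, and the call was lost without any single array (adjusted p = 0.0739 to 0.134). SNRPA, which binds a stem-loop of U1 RNA, was at 10.13, 10.17 and 10.17 and then at 10.33, 10.28 and 10.28 without overlap, and just missed the threshold (log2 difference 0.14, SE 0.041, adjusted p = 0.0533).

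The large scaffold genes of the spliceosome differed little. SF3B1, the subunit that grips the branch site, stood at 13.04 ± 0.021 in control and 13.03 ± 0.013 in knockdown cells. The U2 snRNP genes SNRPB2 and SNRPA1 were at 12.65 ± 0.011 and 12.61 ± 0.043, and at 12.53 ± 0.045 and 12.49 ± 0.054. PRPF8, the core protein of U5 snRNP, was at 9.70 and 9.77 (adjusted p = 0.341), PRPF19, the ubiquitin ligase of the complex that joins at activation, at 10.61 and 10.65, and PRPF6 and PRPF31 of the tri-snRNP at 9.74 and 9.73 and at 10.32 and 10.27. Without a call were also SF3B2 (log2 difference 0.10), SF3B4 (-0.003), SF3B5 (-0.04), SNRPC (-0.02), PRPF18 (0.02) and PRPF39 (0.02). SF3B3 did not pass by its brightest probe set, at 10.66 and 10.57 (adjusted p = 0.235), but its other probe set fell by 0.46 on the log2 scale, from 7.43 ± 0.085 to 6.97 ± 0.042 (SE 0.057, adjusted p = 0.00171).

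Of the 9 SR protein genes, 1 was higher (11.1%), 1 lower (11.1%) and 7 did not pass. Of all genes, 15.5% were called higher and 10.5% lower, and of those at or above the median level 22.9% and 14.7%. The median log2 difference was -0.01. SRSF7, an SR protein with a zinc knuckle, was at 12.82, 12.92 and 12.89 in control cells and at 13.03, 13.08 and 13.05 in knockdown cells (log2 difference 0.18, SE 0.046, adjusted p = 0.0301). A second SRSF7 probe set rose by 0.25 (SE 0.048, adjusted p = 0.00953), and the 2 dimmest lay the other way without passing (log2 differences -0.20 and -0.12). SRSF8, a gene derived from SRSF2, was at 9.90, 9.89 and 9.86 and then at 9.71, 9.73 and 9.70 (log2 difference -0.17, SE 0.040, adjusted p = 0.0231). The brightest probe sets of both genes end in _x_at, a suffix for probes that may bind related transcripts. The second SRSF7 probe set does not carry it, and its rise was kept with such probe sets left out (adjusted p = 0.0134). Both SRSF8 probe sets end in _x_at or _s_at, so signal from relatives was not told apart there.

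Both SR calls were near the threshold and were lost when arrays were left out, with 18.1% to 25.0% of all genes then called. SRSF7 lost its call whichever array was left out (adjusted p = 0.0515 to 0.0915, limma), at log2 differences of 0.15 to 0.20. It also lost the call after median centring (0.0802). SRSF8 lost its call without each array but control replicate 1 (0.0556 to 0.0841). SRSF6 was at 11.72, 11.73 and 11.70 and then at 11.59, 11.52 and 11.60, all lower than the controls, and narrowly missed the threshold (log2 difference -0.14, adjusted p = 0.0528). Its other probe set was at 10.47 and 10.57, the opposite way (adjusted p = 0.169). SRSF11 was at 12.43 ± 0.098 and 12.28 ± 0.054 (adjusted p = 0.153). SRSF1, the founding member of the family, stood at 13.52 ± 0.0096 in control and 13.52 ± 0.035 in knockdown cells, and SRSF3, the smallest, at 13.62 ± 0.039 and 13.61 ± 0.0092. SRSF4, SRSF5 and SRSF10 differed by -0.03, 0.04 and 0.06.

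Of the 19 hnRNP genes, 4 fell, 1 rose and 14 did not pass, with a median log2 difference of -0.02. Called lower were 21.1%, beside 10.5% of all genes and 14.7% of those at or above the median level. The 4 include the pseudogene HNRNPA3P1, under the lower quartile on each array and so not among the genes at or above the median level. After median centring 5 hnRNP genes were lower and 1 higher, with a median of -0.07. HNRNPH3, a member of the H and F family that binds runs of guanine, fell from 12.13, 12.06 and 12.06 in control cells to 11.66, 11.58 and 11.61 in knockdown cells. The groups were far apart, at 12.08 ± 0.041 and 11.62 ± 0.043 (log2 difference -0.46, SE 0.046, adjusted p = 7.28e-04, limma). Its 3 other probe sets gave -0.17, -0.16 and -0.15 with adjusted p of 0.0679, 0.054 and 0.0651, each below the controls on all knockdown arrays, so only the brightest passed.

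HNRNPF, which belongs to the same family, took the opposite course. It was at 11.46, 11.49 and 11.47 in control cells and at 11.79, 11.73 and 11.75 in knockdown cells by its only probe set, without overlap (log2 difference 0.28, SE 0.041, adjusted p = 0.00375). HNRNPH1, a further relative, was at 13.21 ± 0.030 and 13.20 ± 0.021 (adjusted p = 0.852). These 3 relatives thus gave a rise, a fall and a difference within the spread of the arrays. The probe set shared by HNRNPH2, also of this family, and its read-through with RPL36A was called lower (log2 difference -0.17, adjusted p = 0.0275, limma).

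HNRNPA0, an A/B-type hnRNP that binds AU-rich elements, was at 12.06, 12.01 and 12.03 and then at 11.84, 11.81 and 11.82 (log2 difference -0.21, SE 0.040, adjusted p = 0.0109). Its second probe set gave -0.14 (adjusted p = 0.0889). HNRNPA3, of the same type, was at 11.80, 11.74 and 11.71 and then at 11.61, 11.54 and 11.56 (log2 difference -0.18, SE 0.046, adjusted p = 0.0303), lost its call without any single array (0.0528 to 0.0968), and had 2 other probe sets that did not pass (-0.11 and -0.01). HNRNPA3P1, a pseudogene of HNRNPA3, fell from 3.71, 3.68 and 3.66 to 3.54, 3.48 and 3.48 (adjusted p = 0.0252). Its level was under the lower quartile on each array. It lost its call without control replicate 2 or 3 or OCRL siRNA replicate 2 or 3 (0.0605 to 0.0912), and signal from HNRNPA3 was not told apart.

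The abundant hnRNP genes differed little between the groups. HNRNPA2B1 stood at 13.83 ± 0.0165 in control and 13.85 ± 0.022 in knockdown cells, HNRNPK, which binds cytosine-rich stretches, at 13.84 ± 0.0063 and 13.82 ± 0.015, and HNRNPA1 at 12.68 ± 0.047 and 12.66 ± 0.038. HNRNPC, which binds uridine tracts, differed by -0.02, HNRNPU by -0.06, HNRNPM by 0.06 and HNRNPR by -0.05, and HNRNPAB, HNRNPDL, HNRNPUL1 and HNRNPUL2 by -0.002 to -0.02. HNRNPL, which binds CA repeats, was at 10.96, 10.98 and 11.05 and then at 10.78, 10.87 and 10.89 without overlap (log2 difference -0.15, adjusted p = 0.0745). It was called lower after median centring.

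Without control replicate 2 or 3 or OCRL siRNA replicate 2 or 3, 3 of the 5 hnRNP calls were left.

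**Figure D4:**
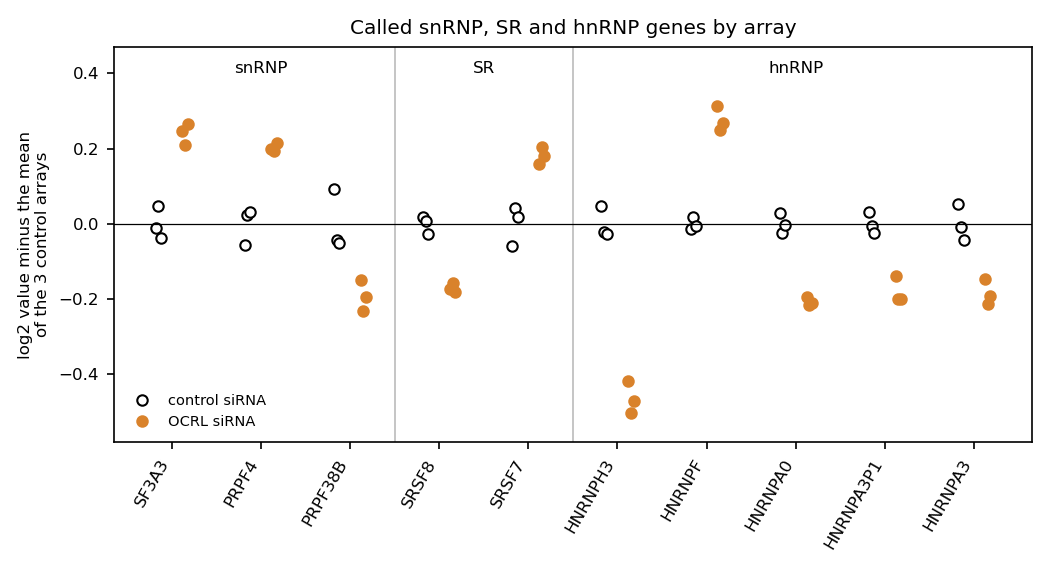
Log2 value of each array minus the mean of the 3 control arrays, for the 10 called snRNP, SR and hnRNP genes, with open circles for control siRNA and filled circles for OCRL siRNA. HNRNPH3 is farthest below 0 and HNRNPF farthest above. The groups do not overlap for any of the 10, which were chosen by their calls on these same arrays. Of all genes 44.9% also show no overlap, and 62.3% of those at or above the median level.

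Probe sets of 1 gene can report different transcript ends or forms, and 38 of the 67 members had more than 1. For 24 of these no probe set was called. For 3 (LSM4, PRPF4 and SRSF7) the brightest and another were called the same way, for 4 (SRSF8, HNRNPH3, HNRNPA0 and HNRNPA3) the brightest alone, and for 5 (LSM14A, SF3B3, SRSF1, SRSF10 and HNRNPDL) only a dimmer one. The 2 remaining genes, LSM5 and HNRNPD, had probe sets called in both directions.

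LSM5 rose by its brightest probe set, from 12.39, 12.32 and 12.34 to 12.57, 12.50 and 12.50 (log2 difference 0.18, SE 0.045, adjusted p = 0.0319). Its dimmest fell, from 8.64, 8.54 and 8.44 to 8.19, 8.21 and 8.25 (log2 difference -0.32, SE 0.059, adjusted p = 0.00887). The rise of LSM5 is thus that of its brightest probe set, and its other probe set, at 9.66 and 9.51, did not pass.

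HNRNPD, also known as AUF1, binds AU-rich elements and promotes the decay of messenger RNA. Its brightest probe set was at 13.46 ± 0.013 and 13.51 ± 0.019 and did not pass (adjusted p = 0.474). Another rose from 12.47, 12.41 and 12.37 to 12.65, 12.58 and 12.61 (log2 difference 0.20, SE 0.046, adjusted p = 0.0208). A pair of dimmer ones fell, by 0.24 (SE 0.045, adjusted p = 0.00949) and 0.36 (SE 0.062, adjusted p = 0.00724) on the log2 scale. A dim probe set of SRSF1 also fell, from 5.75 ± 0.108 to 5.32 ± 0.043 (log2 difference -0.43, SE 0.064, adjusted p = 0.00372), while the 3 others differed by -0.002 to -0.02. Which transcripts these probe sets report was not examined.

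**Figure D5:**
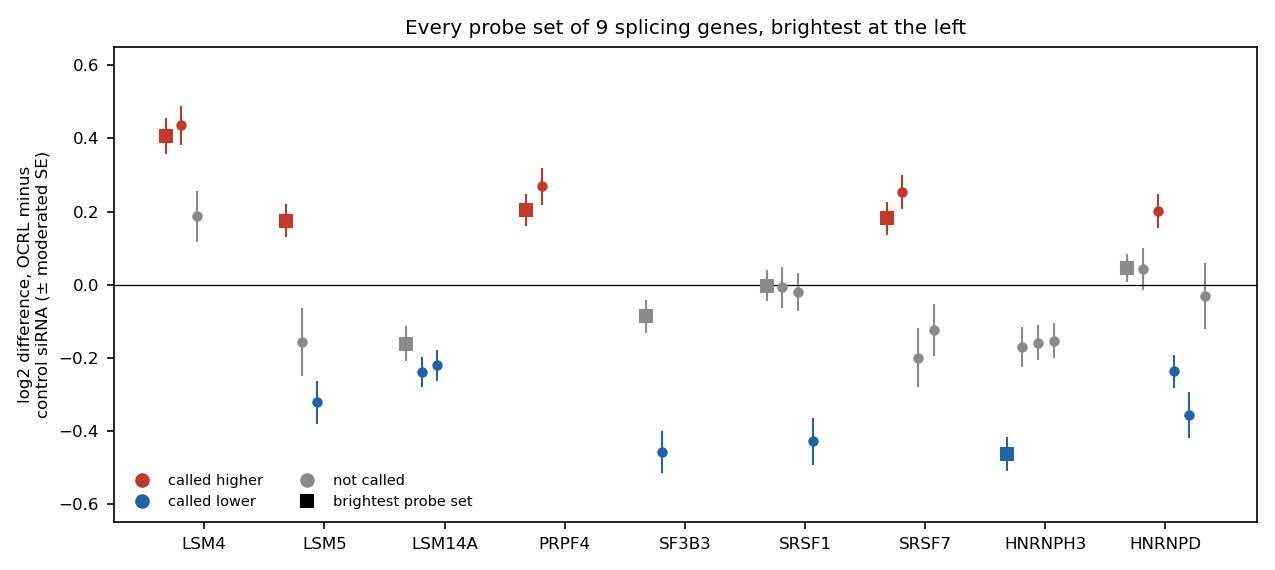
Log2 difference (OCRL siRNA minus control siRNA) with its moderated standard error for every probe set of 9 splicing genes, from the brightest (square) at the left to the dimmest at the right. LSM5 and HNRNPD have red points above 0 and blue points below 0, while the LSM4 and PRPF4 points all lie above 0.

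The promoters of the gene that rose most and of the one that fell most show the windows in which chosen motifs were searched. They are the 250 bases before the annotated start, 5′ to 3′ on the strand of the gene, from RefSeq on GRCh38.p14: LSM4 at chr19:18323077-18323326 on the minus strand and HNRNPH3 at chr10:68331443-68331692 on the plus strand. Capitals mark the matches, an E2F-type motif in LSM4 and an E-box in HNRNPH3.
LSM4: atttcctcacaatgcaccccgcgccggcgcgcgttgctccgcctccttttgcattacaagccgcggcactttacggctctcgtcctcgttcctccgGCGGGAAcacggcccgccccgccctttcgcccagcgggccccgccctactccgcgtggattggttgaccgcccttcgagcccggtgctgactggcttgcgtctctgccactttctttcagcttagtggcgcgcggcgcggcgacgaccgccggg
HNRNPH3: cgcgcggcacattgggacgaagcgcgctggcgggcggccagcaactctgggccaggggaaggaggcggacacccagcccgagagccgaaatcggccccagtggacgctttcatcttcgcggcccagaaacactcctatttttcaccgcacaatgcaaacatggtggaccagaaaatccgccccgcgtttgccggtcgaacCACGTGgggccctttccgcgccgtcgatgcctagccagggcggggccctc

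Such a window was held for 58 of the 67 members and for 9563 of all genes measured, and 4 motifs were searched on both strands. The ETS-type motif CCGGAAG was in 19 of the 58 (32.8%), against 12.8% of all 9563. It was in 10 of the 18 snRNP promoters (55.6%), in 5 of 14 Sm and LSm promoters, in 2 of 9 SR promoters and in 2 of 17 hnRNP promoters. Of the snRNP promoters with it, only that of SF3A3 belonged to a called gene, and the called genes PRPF4 and PRPF38B lacked it. The E-box CACGTG was in 6 of the 58 (10.3%), against 8.34%, and 5 of the 6 were hnRNP promoters (HNRNPH3, HNRNPA3, HNRNPD, HNRNPDL and HNRNPM). The E2F-type motif TTCCCGC was in 10 (17.2%), against 8.25%, and the NRF1-type motif GCATGCGC in 3 (5.17%), against 3.86%. Of 11 promoters of members that rose, 3 held the ETS-type motif, 1 the E2F-type, 1 the NRF1-type and 0 the E-box. Of 5 promoters of members that fell, 2 held the E-box and 0 any of the others. A match of letters describes the window and is not a site.

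Genes that act beside these members were counted in the same fit. Of 14 genes of snRNP assembly, by which the SMN complex and the methyltransferase PRMT5 load Sm proteins onto RNA, 2 rose, 1 fell and 11 did not pass. GEMIN6, which contacts Sm proteins in the SMN complex, rose by 0.20 (SE 0.050, adjusted p = 0.0307), and WDR77, the partner of PRMT5, fell by 0.17 (SE 0.044, adjusted p = 0.0366). Of 37 other spliceosome genes, 4 rose, among them SNRNP25 of the minor spliceosome (log2 difference 0.24, SE 0.047, adjusted p = 0.0121) and BUD31 (0.21, SE 0.044, adjusted p = 0.0154), 1 fell and 32 did not pass. Of 19 genes of SR-related proteins and SR kinases, DYRK1A rose (0.15, adjusted p = 0.0371) and SON, a scaffold of nuclear speckles, fell (-0.15, adjusted p = 0.0435), with median 0.004. Called higher were 14.3% of the assembly, 10.8% of the other spliceosome and 5.26% of the SR-related genes, beside 15.5% of all genes. Called lower were 7.14%, 2.70% and 5.26%, beside 10.5%. Genes at or above the median level stood at 22.9% and 14.7%, so none of these lists exceeded either background.

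Among 35 other splicing regulators, 11 were called lower (31.4%, beside 10.5% of all genes and 14.7% of those at or above the median level), 1 was higher and 23 did not pass, with a median log2 difference of -0.09. CELF2, which regulates alternative exons, fell to 6.76 from a control mean of 7.17 (log2 difference -0.41, SE 0.061, adjusted p = 0.00377), and the muscleblind family gene MBNL2 was at 10.64 and 10.23 (-0.41, SE 0.069, adjusted p = 0.00603). Of 5 exon junction complex genes, RBM8A fell (log2 difference -0.27, adjusted p = 0.0249) and 4 did not pass. Of 5 partners of the cytoplasmic LSm ring, 2 fell: DCP2, the enzyme that removes the cap, from 10.19 to 9.69 (-0.50, SE 0.047, adjusted p = 5.43e-04), and its cofactor gene DCP1A (-0.26, SE 0.059, adjusted p = 0.0214). The other 3 did not pass: the helicase gene DDX6 was at 7.84 and 8.19 without overlap (0.35, SE 0.121, adjusted p = 0.0816), EDC3 at 6.88 and 6.97 and EDC4 at 8.66 and 8.67. The median over the 5 was 0.0035. No difference between these lists and other genes was tested, and the alternative settings were run for the members only.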

How the data were processed

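The authors deposited log2 values for each probe set of single-colour GeneChips; the submitters' processing notes name affy and RMA and no version. RMA sets arrays to a common distribution, which removes shifts shared by most genes, yet the medians of the deposited arrays ran from 7.23 to 7.24 in control and from 7.27 to 7.30 in OCRL siRNA arrays, hence the median centring. After removal of 62 AFFX controls, 22215 probe sets were tested with limma 3.58.1 in R 4.3.3 (lmFit, eBayes, group as the term, two-sided), with Benjamini-Hochberg adjusted p under 0.05 as a call. Symbols came from GEO's platform annotation; 19064 probe sets had 1 symbol, 1043 several and 2108 none. The brightest probe set by mean log2 value stood for each gene. SE is the moderated standard error and SD is over 3 arrays. The labels call the replicates independent experiments.

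Members, lists and motifs were chosen with earlier results of these data known. All called members were named, in each group up to 6 with values by array and up to 3 bright members that did not pass, and 2 genes per further list; members near the threshold and probe sets that differed were added after their values were seen. Simulated data served to test the script. Alternatives were 2 scalings, the replicate block, each array left out, other variance settings, array weights, filters and other probe set choices. No protein sequences were used here.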

Additional observations from a re-analysis of the deposited data

How the results depend on the processing

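The directions of the 18 called members held in each alternative that gave a value (16 for 11 members and 15 for 7, of which HNRNPA3P1 drops out with dim probe sets and the others without _s_at and _x_at ones), except where another probe set was chosen. LSM5 was then at -0.32 without _s_at and _x_at probe sets and by its most variable probe set, and at -0.10 by the mean of its probe sets, SRSF7 at -0.20 by the most variable, and HNRNPD, not called as reported, at -0.24 and -0.36. Over all members and settings, 85 values lost a call and 31 gained one. Median centring gave 6 rises among members and 4 called Sm/LSm genes. Deviations of arrays with the same replicate number correlated at 0.14, 0.12 and -0.01, and those with different numbers at -0.18 to 0.10. Deviations within a group of 3 sum to 0, so these values cannot show whether arrays of the same number were paired. The replicate block gave 5 Sm/LSm and 0 SR calls, with 4 SR genes at an unadjusted p under 0.05 and 4571 probe sets called. Trend and robust settings gave 4 SR calls. A 1.5-fold minimum left 806 probe sets and 0 members higher or lower, hence 0 in each group. Without _s_at and _x_at probe sets, which leaves fewer probe sets and 42 members, 2348 probe sets, 7 rises and 1 SR gene were called. The mean of the probe sets gave 5 snRNP and 1 SR calls, and the most variable one 10 falls. With dim probe sets left out, 15 members rose and 8 fell, while 52.2% of genes were called. Leaving out 1 array gave 3576 to 4898 probe sets called, 5 to 9 rises, 2 to 4 falls, 3 to 6 Sm/LSm, 1 to 2 snRNP, 0 to 1 SR and 3 to 4 hnRNP calls. OCRL was lower in the 15 settings that gave it a value; both its probe sets end in _s_at. The cause of these shifts was not tested. With 3 arrays per group, the smallest member difference called was -0.17 (SRSF8).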

Other observations

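Further splicing genes are reported by probe sets that carry several symbols and were not counted as members. SNRPN, an Sm gene of the imprinted Prader-Willi region, shares its transcript with SNURF, and the 2 probe sets with only these symbols rose, from 10.47 to 10.74 (log2 difference 0.27, SE 0.052, adjusted p = 0.0112, limma) and from 9.14 to 9.42 (0.28, SE 0.068, adjusted p = 0.0268). Both end in _x_at, the suffix for probes that may bind related transcripts. Probe sets that carry further symbols beside SNRPN gave 0.08, -0.14 and -0.05 without passing. Of 3 probe sets for SRSF2 and MIR636, 1 rose, from 12.64 to 12.83 (0.19, SE 0.043, adjusted p = 0.0217), and the others gave 0.11 and 0.09 without passing. A probe set for HNRNPH2, a further H and F family gene, and its read-through with RPL36A fell from 12.62 to 12.45 (-0.17, SE 0.041, adjusted p = 0.0275). Of 3 shared by HNRNPA3 and HNRNPA3P1, 1 fell (-0.22, SE 0.050, adjusted p = 0.0213) and the others gave -0.04 and -0.005. Both SRSF9 probe sets (0.10 and 0.02) and both HNRNPA1 probe sets shared with pseudogenes (-0.08 each) did not pass.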
